A study of Rattus norvegicus with 6 samples.

Results

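Twist1, Twist2, Prrx1, Prrx2, Runx1, Runx2, Snai1, Snai2, Zeb1 and Zeb2 encode transcription factors of mesenchymal cells and of the epithelial to mesenchymal transition (EMT). The members were picked out of the table by gene name, and the set was put together with earlier results of these data known. The deposited table held 1 row for each of the 10 names among its 30957 genes. All 10 passed the expression filter, which kept 12393 genes.

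RNA-seq was performed on 3 crushed sciatic nerves and 3 contralateral intact nerves from Sprague-Dawley rats. The methods describe adult male rats and the proximal stump of the crushed nerve at 4 days postinjury (dpi), while the sample labels give no time and no sex. Nerves carry the numbers 1 to 3 within each group in the labels, and the design text calls them biological replicates without saying which nerves share a rat. The p-values therefore measure the spread between these nerves.

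The intact nerves came from rats whose other sciatic nerve had been injured, and are not nerves of uninjured animals. According to the methods, rRNA was removed and linear RNA was digested with RNase R, a step that is missing from the labels, where a column kit is named. The side of the lesion also differs between the methods and the design text.

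In the transition, epithelial cells give up their junctions and gain motility. Snai and Zeb proteins are zinc-finger repressors that bind E-boxes such as those of the E-cadherin promoter, and Twist proteins are basic helix-loop-helix factors that bind E-boxes as dimers. Prrx proteins are paired-type homeodomain factors of connective tissue, and Runx proteins bind DNA with the partner Cbfb, with Runx1 best known in blood formation and Runx2 in bone formation. In peripheral nerve, fibroblasts of the endoneurium and perineurium and the neural crest origin of Schwann cells are the usual settings in which such factors are discussed.

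Promoters of the 4 members whose crushed and intact nerves did not overlap, and of Zeb1, whose nerves overlapped, are shown. Letters that factors of these families are known to bind are marked. Matches in the windows not printed are given below. Whether motifs differ between members by their change was not tested. The windows run from 250 bases before to 50 bases after the RefSeq start site in the GRCr8 build, which is not the build named for the deposited files. RefSeq windows matched 9 of the 10 members, all but Snai2, and Runx2 had 2 starts. Capitals mark the Runx motif TGTGGT or TGCGGT, on either strand, in the Runx2 windows and the E-box CANNTG in the others.
Runx2, first start, plus strand of chr9:23664808-23665107: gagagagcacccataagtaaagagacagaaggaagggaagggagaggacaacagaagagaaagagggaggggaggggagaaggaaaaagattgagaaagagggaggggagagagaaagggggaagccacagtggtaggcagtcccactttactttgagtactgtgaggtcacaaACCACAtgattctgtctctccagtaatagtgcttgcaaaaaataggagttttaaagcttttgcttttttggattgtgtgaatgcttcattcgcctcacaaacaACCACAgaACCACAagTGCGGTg
Runx2, second start, plus strand of chr9:23742990-23743289: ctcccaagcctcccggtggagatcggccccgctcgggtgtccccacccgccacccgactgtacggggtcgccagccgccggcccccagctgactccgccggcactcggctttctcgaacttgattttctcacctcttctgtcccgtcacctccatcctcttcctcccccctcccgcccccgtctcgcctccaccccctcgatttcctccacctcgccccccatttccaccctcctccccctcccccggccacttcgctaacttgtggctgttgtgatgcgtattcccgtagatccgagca
Twist1, plus strand of chr6:56402059-56402358: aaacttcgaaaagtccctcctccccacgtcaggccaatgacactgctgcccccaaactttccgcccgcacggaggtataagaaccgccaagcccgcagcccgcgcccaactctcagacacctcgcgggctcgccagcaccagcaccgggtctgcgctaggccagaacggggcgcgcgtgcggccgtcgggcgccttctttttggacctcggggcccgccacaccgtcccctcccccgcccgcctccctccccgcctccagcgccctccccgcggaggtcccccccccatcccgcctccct
Prrx1, minus strand of chr13:78204024-78204323: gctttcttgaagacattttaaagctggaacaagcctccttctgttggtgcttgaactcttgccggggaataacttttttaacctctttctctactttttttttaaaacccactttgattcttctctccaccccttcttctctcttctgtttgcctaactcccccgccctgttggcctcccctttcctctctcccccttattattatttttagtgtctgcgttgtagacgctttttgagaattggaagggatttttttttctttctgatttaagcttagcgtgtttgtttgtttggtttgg
Prrx2, plus strand of chr3:34530081-34530380: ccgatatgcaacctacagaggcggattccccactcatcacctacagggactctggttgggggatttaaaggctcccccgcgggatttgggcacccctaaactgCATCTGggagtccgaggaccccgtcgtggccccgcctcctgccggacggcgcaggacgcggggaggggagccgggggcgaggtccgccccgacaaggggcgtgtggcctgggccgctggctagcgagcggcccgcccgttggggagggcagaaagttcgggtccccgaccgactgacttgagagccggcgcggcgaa
Zeb1, minus strand of chr17:56810604-56810903: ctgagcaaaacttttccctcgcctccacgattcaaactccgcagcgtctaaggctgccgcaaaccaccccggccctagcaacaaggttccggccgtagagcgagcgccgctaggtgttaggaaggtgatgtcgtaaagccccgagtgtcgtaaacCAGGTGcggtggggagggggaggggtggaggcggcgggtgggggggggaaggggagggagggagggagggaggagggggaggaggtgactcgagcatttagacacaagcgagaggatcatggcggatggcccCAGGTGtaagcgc

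The first Runx2 window held 4 matches to the Runx motif, at -76, 27, 35 and 43 from the start site, and the second held none. The match at -76 overlaps an E-box CACATG at -74, and those at 35 and 43 overlap an E-box CAAGTG at 39. The second Runx2 window held the E-box CAGCTG at -165. At least 1 match to the Runx motif was present in 22.9% of 33469 windows of this length. Zeb1 held the E-box CAGGTG at -95 and at 37, and the first overlaps a Runx motif at -91. That E-box on either strand was present in 18.8% of all windows. Prrx2 held the E-box CATCTG at -147, and the windows of Twist1 and Prrx1 held no E-box CANNTG, a motif present in 72.1% of all windows. Of the windows not printed, Snai1 held CACCTG at -142 and a Runx motif ACCGCA at -217, Runx1 held CATGTG at -214, Zeb2 held CACATG at -181, and Twist2 held none of these. None of the 10 windows held the homeobox motif TAATTA, found in 5.36% of all windows. A match is a run of letters and not a binding site.

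The libraries were of similar depth, with 24844371 to 27139360 counts on genes per nerve. A count of 3, the floor used here for telling a level from 0, corresponded to 0.110 to 0.121 normalized CPM (counts per library of a common size), for counting error only. Along the second principal component, which held 19.6% of the variance, intact nerve 1 lay at 9.74 and the other intact nerves at -6.95 and -9.06, so the log2 fold change of each member is also given without intact nerve 1. Several defining markers of nerve tissue were at or near 0. The Schwann cell genes Cdh19 and Mag, the fibroblast genes Col1a2, Dcn, Lum and Dpt and the macrophage genes Ptprc, Adgre1 and Cd163 had no count in any nerve, and Sox10 had 0 or 1 count. Mki67, a gene of dividing cells, had 37037 to 43837 counts per nerve. In crushed nerves the macrophage markers summed to 4.43 to 6.30 normalized CPM and the 8 proliferation genes to 3566 to 3681. The deposited libraries thus lack much of the usual marker profile of the labelled tissue, in both groups. Whether they hold the tissue that the labels name was not tested.

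Between genes, levels are compared as normalized CPM per kilobase of the gene length implied by the deposited values. On this scale the members covered a wide range, with Twist1 highest and Snai1 lowest. Twist1 had a mean level of 44.0 over the 6 nerves (range 40.2 to 49.1), higher than that of 81.8% of the genes tested. Runx2 followed at 31.3 (28.6 to 34.7) and Prrx1 at 28.2 (25.3 to 30.8), and then Zeb1 at 24.6 (22.9 to 26.6), Prrx2 at 23.3 (20.3 to 28.2) and Zeb2 at 23.1 (22.6 to 23.9). Runx1 stood at 18.8 (17.5 to 21.3). These 7 genes lay in the upper part of the distribution, above at least 59.7% of the genes tested. The remaining members were much lower, with Snai2 at 5.78 (5.38 to 6.14), Twist2 at 2.41 (1.93 to 2.84) and Snai1 at 1.11 (0.928 to 1.21), the last above 9.20% of the genes tested. Neighbours from Runx2 down to Zeb2 overlapped in range over the nerves. Of these, Runx2 was above Prrx1 in all 6 nerves and Prrx1 above Zeb1 in 5, whereas Zeb1 was above Prrx2 in 3 and Prrx2 above Zeb2 in 3. The ranges of Twist1 and Runx2, of Zeb2 and Runx1, of Runx1 and Snai2, of Snai2 and Twist2 and of Twist2 and Snai1 did not overlap.

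**Figure D1:**
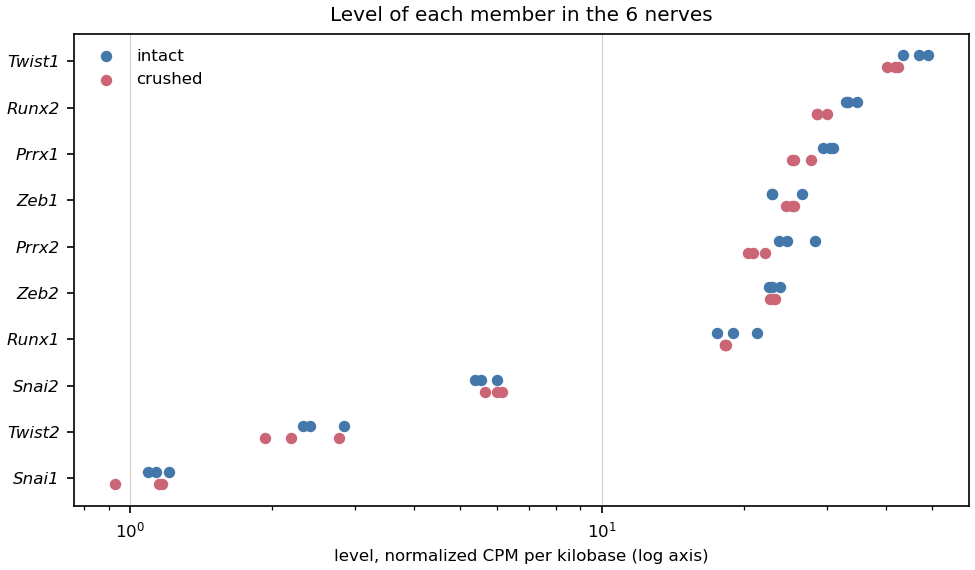
Level of each member in each of the 6 nerves, in normalized CPM per kilobase on a log axis, with intact nerves in blue and crushed nerves in red. Twist1 sits highest at 40.2 to 49.1 and Snai1 lowest at 0.928 to 1.21, and Snai2, Twist2 and Snai1 lie apart from the other 7.

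In the comparison of crushed with intact nerves, which by the labels asks how injury changes the transcripts of the nerve, Runx2 fell by a small amount. No other member passed an adjusted p of 0.05. No member passed the limits given in the methods (log2 fold change beyond 1 in either direction, p under 0.001), which 0.282% of the 12393 genes tested passed. At an adjusted p under 0.05, from the quasi-likelihood test of edgeR, 1 member was lower in crushed nerves, against 1.65% of all genes tested, and 0 were higher, against 1.47%. For 4 members (Twist1, Prrx1, Prrx2 and Runx2) all crushed nerves lay below all intact nerves, against 12.2% of genes tested. For 0 members did they lie above, against 10.8% of genes tested. These same 4 were the members with an unadjusted p under 0.05, as had 2009 of all genes tested. Fold changes were negative for 8 members and positive for 2, and the median log2 fold change was -0.11 against -0.0017 over all genes tested. The summed normalized CPM of the 10 members was 607 to 644 in intact and 572 to 581 in crushed nerves. In bulk tissue, fewer cells of a type and less RNA per cell cannot be told apart.

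**Figure D2:**
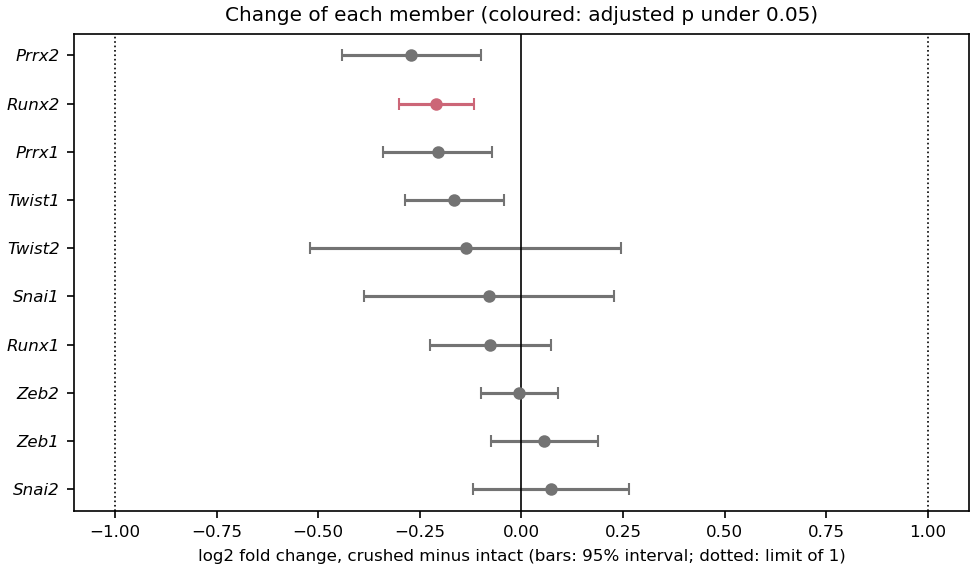
Log2 fold change of each member, crushed minus intact, with bars for the 95% interval from edgeR and dotted lines at the limit of 1. Runx2, in red, is the member with an adjusted p under 0.05, and every interval lies within the limits, from -0.52 for Twist2 at the lowest to 0.27 for Snai2 at the highest.

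Runx2, the osteoblast master regulator, lies on chromosome 9 from 18564927 to 18773092 in the deposited table (ENSRNOG00000020193). It was counted deeply, with 4244 to 4890 counts per nerve. Normalized CPM was 187, 185 and 196 in intact nerves 1 to 3 and 161, 161 and 169 in crushed nerves 1 to 3. Every crushed nerve was lower than every intact nerve, and the values within each group were close together. The mean fell from 189 ± 5.58 to 164 ± 4.69 normalized CPM (n = 3 nerves per group, ± SD), which gave a log2 fold change of -0.21 (standard error, SE, 0.0418, 95% interval -0.30 to -0.12, adjusted p = 0.0222, Benjamini-Hochberg over all genes, by edgeR), a change of -13.5% (-18.9% to -7.79%). Runx2 ranked 242 of 12393 genes by p. The adjusted p was 0.0173 without intact nerve 1, but the call was lost without intact nerve 2 (adjusted p = 0.0504), intact nerve 3 (0.0729), crushed nerve 1 (0.126) or crushed nerve 2 (0.122), all with edgeR's test, and with limma on log2(FPKM + 0.1) (adjusted p = 0.0816). The log2 fold change stayed between -0.23 and -0.18 in all of these fits. An exact permutation test of the CPM values gave p = 0.1, the smallest that 3 nerves against 3 allow.

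Runx1, a regulator of blood stem cells that is also expressed outside blood, lies on chromosome 11 from 32769165 to 33003021 (ENSRNOG00000001704). It had 67.9, 55.9 and 60.6 normalized CPM in intact nerves 1 to 3 and 58.5, 58.2 and 58.0 in crushed nerves 1 to 3. The crushed nerves were almost identical to each other and lay inside the range of the intact nerves, in which nerve 1 was highest. The means were 61.5 ± 6.03 and 58.3 ± 0.245 normalized CPM (SD, n = 3 each), with a log2 fold change of -0.08 (SE 0.0672, edgeR adjusted p = 0.625). The interval allows a fold between 0.856 and 1.05. Without intact nerve 1 the log2 fold change was 0.0062.

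Twist1, a factor of cranial and limb mesenchyme, lies on chromosome 6 from 53401109 to 53403214 (ENSRNOG00000011101). Intact nerves 1, 2 and 3 had 75.6, 79.0 and 69.9 normalized CPM and crushed nerves 1, 2 and 3 had 67.2, 68.2 and 64.7. The groups did not overlap, but the highest crushed nerve came close to the lowest intact nerve. The mean was 74.8 ± 4.60 in intact and 66.7 ± 1.80 in crushed nerves (SD, n = 3 each). The log2 fold change was -0.17 (SE 0.0551, 95% interval -0.29 to -0.04, unadjusted p = 0.0122 and edgeR adjusted p = 0.160), and -0.15 without intact nerve 1.

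Twist2, its close paralog and a factor of dermal mesenchyme, lies on chromosome 9 from 98924134 to 98968510 (ENSRNOG00000020355). It had only 85, 75 and 68 counts in intact nerves 1 to 3 and 71, 62 and 82 in crushed nerves 1 to 3. The groups overlapped, with crushed nerve 3 above 2 of the intact nerves. The mean was 2.98 ± 0.330 normalized CPM in intact and 2.72 ± 0.505 in crushed nerves (SD, n = 3 each). Its log2 fold change was -0.14 (SE 0.173, edgeR adjusted p = 0.748), and the interval, the widest of the members, allows a fold between 0.698 and 1.18. Single nerves moved the log2 fold change, to -0.04 without intact nerve 1, -0.03 without crushed nerve 2 and -0.29 without crushed nerve 3.

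Prrx1, a marker of limb and connective tissue mesenchyme, lies on chromosome 13 from 81147348 to 81214546 (ENSRNOG00000003720). In normalized CPM it stood at 38.2, 37.7 and 36.4 in intact nerves 1 to 3 and at 34.4, 31.3 and 31.6 in crushed nerves 1 to 3. All crushed nerves were below all intact nerves. The mean was 37.4 ± 0.909 in intact and 32.4 ± 1.69 in crushed nerves (SD, n = 3 each), with a log2 fold change of -0.21 (SE 0.0603, 95% interval -0.34 to -0.07). The unadjusted p was 0.00596 and the edgeR adjusted p = 0.109, so the difference did not pass over all genes. Without intact nerve 1 it was -0.19 on the log2 scale.

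Prrx2, the paralog of Prrx1, lies on chromosome 3 from 9681871 to 9718051 (ENSRNOG00000058329). Values of 34.6, 29.1 and 30.3 normalized CPM were found in intact nerves 1 to 3 and of 27.2, 24.96 and 25.7 in crushed nerves 1 to 3. Again the groups did not overlap, and intact nerve 1 stood highest. The mean was 31.3 ± 2.93 in intact and 26.0 ± 1.16 in crushed nerves (SD, n = 3 each). Prrx2 had the most negative log2 fold change of the members, -0.27 (SE 0.0772, 95% interval -0.44 to -0.10, unadjusted p = 0.00508 and edgeR adjusted p = 0.101), and -0.19 (adjusted p = 0.190) without intact nerve 1. For Twist1, Prrx1 and Prrx2 the exact permutation p was 0.1, the smallest possible.

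Snai1, the repressor of E-cadherin known as Snail, lies on chromosome 3 from 164274710 to 164279378 (ENSRNOG00000009594). It had 100, 94 and 92 counts in intact nerves 1 to 3 and 104, 102 and 76 in crushed nerves 1 to 3. Crushed nerve 3 was the lowest of the 6, and the other crushed nerves lay among the intact ones after normalization. The mean was 3.74 ± 0.196 normalized CPM in intact and 3.53 ± 0.433 in crushed nerves (SD, n = 3 each). The log2 fold change was -0.08 (SE 0.139, edgeR adjusted p = 0.827), with a fold between 0.765 and 1.17 allowed. It was -0.03 without intact nerve 1, and the sign turned, to 0.0157, without crushed nerve 3.

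Snai2, known as Slug and a factor of neural crest and of mesenchyme, lies on chromosome 11 from 90403333 to 90406797 (ENSRNOG00000047699). It had 10.5, 11.7 and 10.9 normalized CPM in intact nerves 1 to 3 and 12.04, 11.7 and 11.1 in crushed nerves 1 to 3. The groups overlapped, and the highest nerve was crushed. The mean was 11.0 ± 0.621 in intact and 11.6 ± 0.487 in crushed nerves (SD, n = 3 each). Its log2 fold change was 0.07 (SE 0.0869, edgeR adjusted p = 0.729), with a fold between 0.921 and 1.20 allowed. It was 0.05 without intact nerve 1 and 0.12 without intact nerve 2.

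Zeb1, a zinc-finger and homeodomain repressor of epithelial genes, lies on chromosome 17 from 54658463 to 54714914 (ENSRNOG00000017863). Its normalized CPM was 116.9, 100.8 and 100.8 in intact nerves 1 to 3 and 111.0, 107.8 and 112.1 in crushed nerves 1 to 3. Intact nerve 1 was the highest of the 6 and the other intact nerves were the lowest. With means of 106 ± 9.28 and 110.3 ± 2.27 (SD, n = 3 each), Zeb1 had 0.06 as its log2 fold change (SE 0.0596, edgeR adjusted p = 0.699), with a fold between 0.949 and 1.14 allowed. The value was 0.14 without intact nerve 1 (adjusted p = 0.103), and 0.02 without intact nerve 2 or without intact nerve 3 (adjusted p = 0.899 and 0.889).

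Zeb2, the paralog of Zeb1 and a factor of neural crest and of Schwann cell maturation, lies on chromosome 3 from 29862473 to 29996865 (ENSRNOG00000004677). Its normalized CPM was 105.6, 101.5 and 99.8 in intact nerves 1 to 3 and 102.9, 102.6 and 100.2 in crushed nerves 1 to 3. The groups overlapped fully, with means of 102.3 ± 3.00 and 101.9 ± 1.48 (SD, n = 3 each). On the log2 scale its fold change was -0.01 (SE 0.0428, edgeR adjusted p = 0.965). Its interval was narrow, with a fold between 0.933 and 1.06, and the log2 fold change was 0.02 without intact nerve 1.

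**Figure D3:**
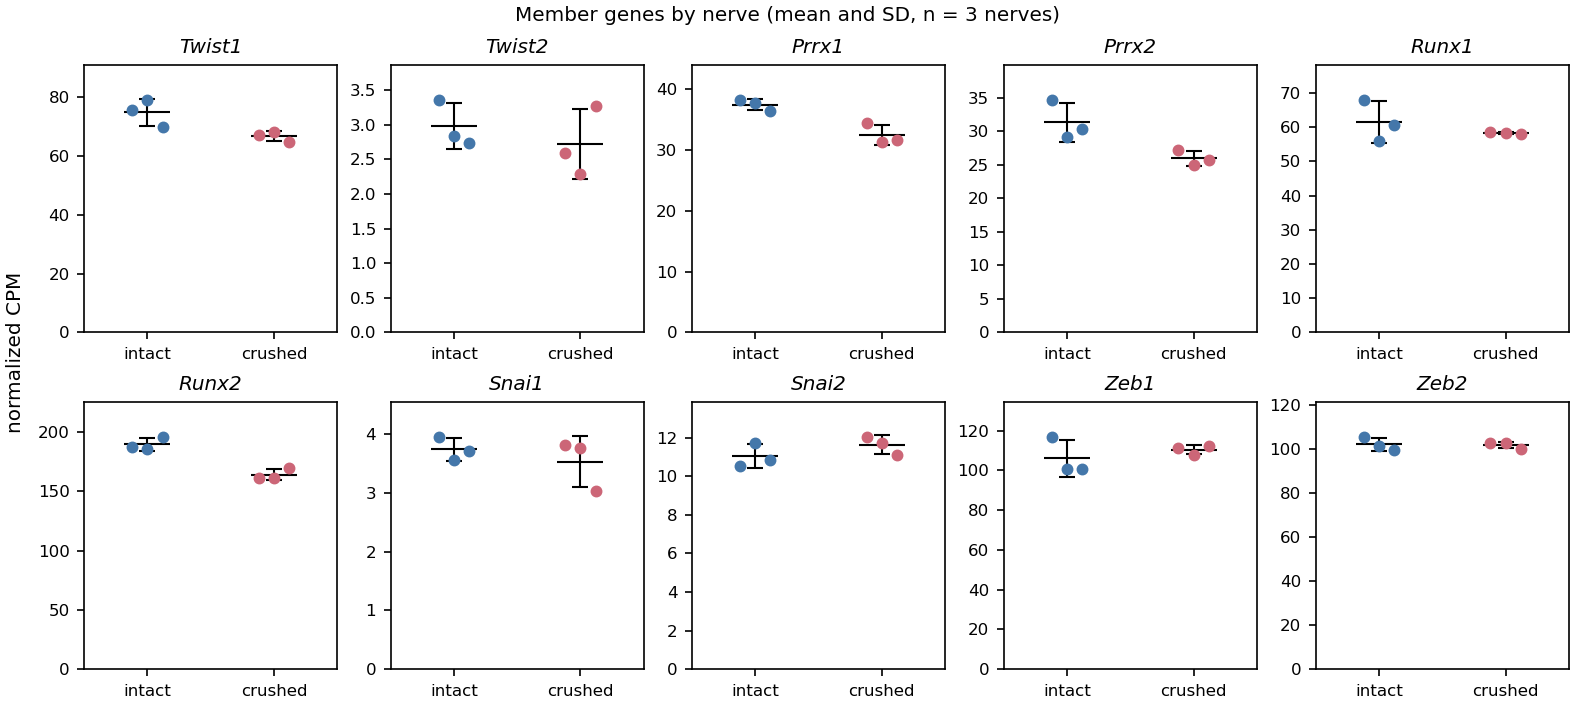
Normalized CPM of each member in each nerve, with the mean as a long bar and the SD as whiskers (n = 3 nerves per group), each axis from 0. The crushed nerves lie below the intact nerves for Twist1, Prrx1, Prrx2 and Runx2 and overlap with them for the other 6 members.

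Within each paralog pair, the level ratio per kilobase in each nerve was compared between groups, which does not depend on library size. Over the 5 pairs no ratio separated the groups. The geometric mean ratio of Twist1 to Twist2 was 18.5 in intact and 18.2 in crushed nerves, that of Prrx1 to Prrx2 1.19 and 1.24, and that of Zeb1 to Zeb2 1.04 and 1.09. Twist1 was thus far above Twist2 in every nerve, by 14.5-fold or more, and the other pairs were closer in level. Runx1 to Runx2 gave 0.572 in intact and 0.629 in crushed nerves, and Snai1 to Snai2 gave 0.203 and 0.182. Exact permutation tests gave adjusted p-values of 0.5 to 1 over the 5 pairs (two-sided, smallest unadjusted p 0.3). With 3 nerves against 3 this test cannot give a p under 0.1, so it could not have called a change at 0.05. The ratio of Runx1 to Runx2 was 0.641, 0.534 and 0.547 in intact nerves 1 to 3 and 0.643, 0.638 and 0.606 in crushed nerves 1 to 3. Only intact nerve 1 kept the groups from separating. The counting of reads that fit both genes of a pair is not given in the sources used here.

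None of the dimer partners and cofactors of these factors passed an adjusted p of 0.05. The list of 25 genes had 24 rows in the table. Rcor1 had a row for each of its Ensembl identifiers, and Hdac1 and Nfatc1 had no row. All 24 rows were tested, and each Rcor1 row was counted. The median log2 fold change over the rows was -0.05, and 5 had an unadjusted p under 0.05, against 2009 of all 12393 genes tested. The E proteins, which pair with Twist, had log2 fold changes of -0.07 (Tcf3), -0.10 (Tcf4) and -0.09 (Tcf12). Cbfb, the partner of the Runx proteins, stood at 173 ± 14.6 normalized CPM in intact and 169.9 ± 2.92 in crushed nerves (SD, n = 3 each; log2 fold change -0.03, edgeR adjusted p = 0.863). Runx3, the remaining Runx gene, had 205, 184 and 152 counts in intact nerves 1 to 3 and 158, 158 and 139 in crushed nerves 1 to 3. Its groups did not overlap after normalization, with a log2 fold change of -0.31 and an adjusted p of 0.244. By level per kilobase the list was led by Id3, a helix-loop-helix inhibitor that sequesters E proteins, at 171, then by Wwtr1 (TAZ), a Hippo pathway coactivator, at 94.97, and Hdac2, a histone deacetylase, at 71.2. The log2 fold change of Wwtr1 was -0.21 (adjusted p = 0.0704, and 0.0251 without crushed nerve 1), that of Id3 0.08 (adjusted p = 0.492) and that of Hdac2 -0.03 (adjusted p = 0.791). The other Id genes were at -0.12 (Id1), -0.35 (Id2) and -0.35 (Id4), none past the adjusted p.

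Among other transcription factors of mesenchyme, 3 fell and none rose at an adjusted p under 0.05, against 1.65% and 1.47% of all genes tested. Of 40 genes on the list, 38 were in the table, 17 had no count in any nerve and 16 were tested, for which the median log2 fold change was -0.08. Those without a count include Meox1, Meox2, Tcf21, Tbx18 and Sox9. Foxc1, a forkhead factor of mesenchyme, fell from 42.2 ± 3.13 to 31.0 ± 0.883 normalized CPM (SD, n = 3 each; log2 fold change -0.45, SE 0.0661, edgeR adjusted p = 0.0037). Shox2, a homeobox gene of limb mesenchyme, fell from 32.5 ± 0.842 to 25.9 ± 1.02 (log2 fold change -0.33, adjusted p = 0.0162), and Foxs1, a forkhead gene of neural crest derivatives and pericytes, from 36.0 ± 3.02 to 28.3 ± 0.682 (-0.34, adjusted p = 0.0253). Foxc1 passed in all 12 settings run. The calls of Shox2 and Foxs1 were lost, with the direction kept, without intact nerve 2 (edgeR adjusted p = 0.0630 and 0.0673), crushed nerve 1 (0.0685 and 0.113), crushed nerve 2 (0.0990 and 0.0831) or crushed nerve 3 (0.0511 and 0.1097). Each of these log2 fold changes was more negative than that of any member, and the difference from the members was not tested. By level per kilobase the list was led by Tead1 at 85.7 (log2 fold change -0.01), Foxs1 at 25.4 and Msx1 at 21.6 (log2 fold change -0.05). Snai3, the remaining Snai gene, had 0 to 2 counts per nerve and was not tested.

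Genes that mesenchymal cells make, the effectors, changed in both directions. Of 37 on the list, 35 were in the table and 26 were tested. At an adjusted p under 0.05, 3 rose and 8 fell, against 1.47% and 1.65% of all genes tested. The median log2 fold change was -0.11, and its median size 0.237, against 0.0820 over all genes tested and 0.109 over the members. Fbn1, the microfibril protein fibrillin-1, rose from 788 ± 22.2 to 1223 ± 21.7 normalized CPM (SD, n = 3 each; log2 fold change 0.63, edgeR adjusted p = 4.06e-06). Lox, which crosslinks collagen, rose from 137 ± 2.47 to 171 ± 3.69 (0.32, adjusted p = 0.0011). Mmp9, a gelatinase, rose from 25, 18 and 13 counts in intact nerves 1 to 3 to 77, 59 and 60 in crushed nerves 1 to 3 (1.74, adjusted p = 0.0024), and was low in both groups. The matrix glycoprotein Fn1 fell from 1253 ± 70.4 to 834.9 ± 12.5 (-0.59, adjusted p = 3.52e-05) and Tnc from 514 ± 12.2 to 396 ± 10.6 (-0.38, adjusted p = 0.00032).

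Other effectors that fell were Spp1 (-0.56), Col1a1 (-0.69), Col3a1 (-1.76), Col5a1 (-0.17), S100a4 (-0.56) and Pdgfrb (-0.77). The calls of Col3a1 and Col5a1 were fragile (adjusted p = 0.0268 and 0.0479 by edgeR). That of Col3a1 was lost without any 1 nerve other than crushed nerve 1 (adjusted p = 0.0514 to 0.0962), and that of Col5a1 without any 1 of the 6 nerves (adjusted p = 0.0502 to 0.201). Col1a1 and Col3a1, the main fibrillar collagen genes, stood at 20.04 ± 0.455 and 0.863 ± 0.0132 normalized CPM in intact nerves (SD, n = 3 each), and Col1a2, Postn, Dcn and Lum had no count in any nerve. Vim, the intermediate filament of mesenchymal cells, had the highest level per kilobase of the list, 1208, and a log2 fold change of -0.07 (edgeR adjusted p = 0.371). S100a4 and Spp1 followed at 756 and 419. For Cdh2, the N-cadherin gene, the log2 fold change was -0.13 (adjusted p = 0.326).

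Epithelial genes, on which the Snai and Zeb repressors act in other tissues, were tested for 13 of 33. Cldn4 rose and none fell at an adjusted p under 0.05, against 1.47% and 1.65% of all genes tested. The median over the list was -0.06 on the log2 scale. Cldn4, a tight junction claudin, had 258, 229 and 272 counts in intact nerves 1 to 3 and 467, 440 and 466 in crushed nerves 1 to 3. It rose from 9.95 ± 1.17 to 17.3 ± 1.21 normalized CPM (SD, n = 3 each; log2 fold change 0.80, SE 0.102, edgeR adjusted p = 0.0014). Cdh1, the E-cadherin gene, had 5, 3 and 7 counts in intact nerves 1 to 3 and 0, 1 and 1 in crushed nerves 1 to 3, too few to pass the filter. No count was found for 9 epithelial genes, among them Epcam, Krt14, Krt18, Krt19 and Ocln. The highest levels per kilobase were those of Tjp1 at 98.4, Cdh3 at 66.0 and Pkp1 at 60.6. These lay above 93.1%, 88.6% and 87.4% of the genes tested. Their log2 fold changes were -0.06, 0.0017 and 0.10, none past the adjusted p.

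Of the genes known as Runx targets, Mmp13 and Spp1 fell and Mmp9 rose at an adjusted p under 0.05. Over all genes tested 1.65% fell and 1.47% rose. Of 17 on the list, 7 were tested, and the median log2 fold change was -0.57 against -0.0017 over all genes tested. That median is the value of Cebpa, a low gene that did not pass the adjusted p. Fold changes were positive for 2 of the 7 and negative for 5. Mmp13, the collagenase of bone and cartilage and a target of Runx2, had 9828, 10143 and 8628 counts in intact nerves 1 to 3 and 5306, 4826 and 4671 in crushed nerves 1 to 3. The nerves within each group were close and the groups far apart, at 374 ± 22.1 and 186 ± 8.27 normalized CPM (SD, n = 3 each; log2 fold change -1.01, SE 0.0523, edgeR adjusted p = 2.56e-06). Mmp13 and Mmp9 were the 2 genes of the list past the limits given in the methods. Over the 12 settings run, the log2 fold change of Mmp13 lay between -1.05 and -0.97, on both sides of that limit, with an adjusted p under 0.05 in all 12.

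Spp1, the osteopontin gene, had 1294, 1167 and 1126 normalized CPM in intact nerves 1 to 3 and 808, 809 and 818 in crushed nerves 1 to 3. No crushed nerve reached an intact one, and Spp1 fell by 0.56 on the log2 scale (SE 0.0495, edgeR adjusted p = 0.00012). Alpl (alkaline phosphatase), Tnfrsf11b (osteoprotegerin) and Cebpa had log2 fold changes of -0.79, -0.75 and -0.57, with adjusted p-values of 0.0826, 0.282 and 0.192. They were low, between 0.863 and 2.50 mean normalized CPM. For Csf1r, a macrophage receptor and target of Runx1, the log2 fold change was 0.06 (adjusted p = 0.940). Spp1 and Mmp9 stand on both this list and that of the effectors. Sp7, the osteoblast factor downstream of Runx2, had 1 count in 1 nerve, and Ibsp and Dlx5 had none. Whether the level of Runx2 bears on these genes was not tested.

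**Figure D4:**
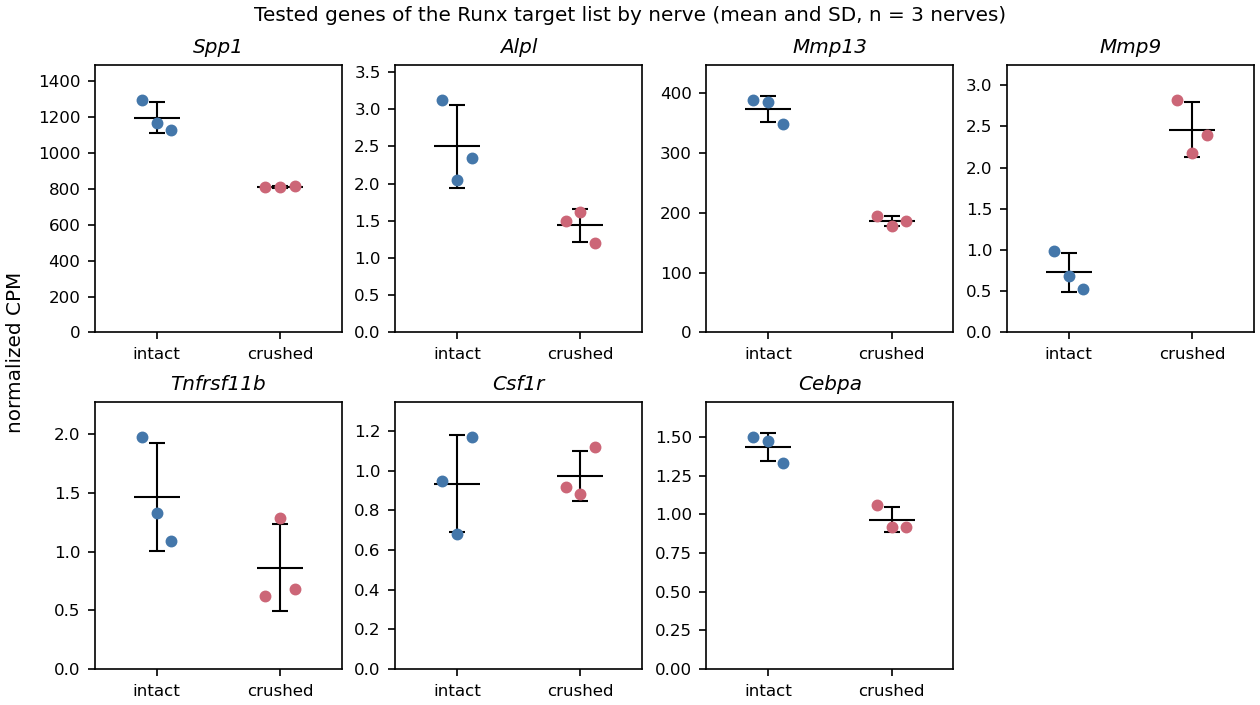
Normalized CPM of the 7 tested genes of the Runx target list in each nerve, with the mean as a long bar and the SD as whiskers (n = 3 nerves per group), each axis from 0. Spp1 and Mmp13 lie lower and Mmp9 higher in every crushed nerve than in any intact nerve, and Alpl and Cebpa lie lower without passing the adjusted p.

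None of the inputs from the TGF-beta family, which induce Snai, Twist and Zeb genes in many cells, passed an adjusted p of 0.05. Of the 16 listed genes 15 table rows were tested, 0 with an adjusted p under 0.05, and the median log2 fold change was -0.01. An unadjusted p under 0.05 was found for 6 of the 15, against 2009 of all 12393 genes tested. Ltbp1, which holds latent TGF-beta in the matrix, had the highest level per kilobase, 176, and a log2 fold change of 0.09 (edgeR adjusted p = 0.211). Smad3, a signal transducer of the receptors, stood at 37.7 per kilobase with a log2 fold change of 0.12 (adjusted p = 0.199), and the ligand gene Tgfb1 at 35.5 with -0.13 (adjusted p = 0.499). The ligand genes Tgfb2 and Tgfb3 had log2 fold changes of -0.27 and -0.27, and the inhibitor genes Smad7 and Skil 0.13 and 0.22, none past the adjusted p.

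**Figure D5:**
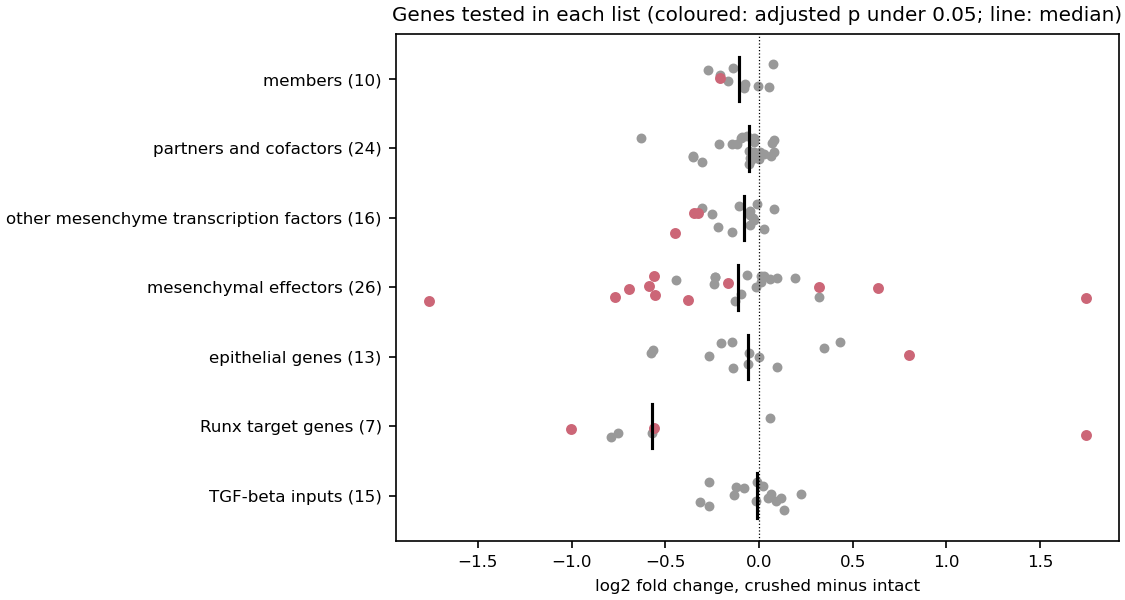
Log2 fold change, crushed minus intact, of every tested gene of each list, with the number tested in brackets, a bar at the median and genes with an adjusted p under 0.05 in red. The medians lie between -0.57 for the Runx target genes and -0.01 for the TGF-beta inputs, and the 10 members lie within a narrower range than the effectors.

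Marker lists of cell types in nerve moved with these genes to different degrees. Of 8 mural and smooth muscle cell markers 5 were tested, with Cspg4 and Pdgfrb lower at an adjusted p under 0.05. Rgs5 was at 0 and Acta2 had 0 to 3 counts per nerve. The summed normalized CPM of the 8 was 199 to 218 in intact and 161 to 165 in crushed nerves. That of 10 fibroblast markers was 187 to 201 and 164 to 182, with Col1a1 and Col3a1 lower at an adjusted p under 0.05, and that of 14 Schwann cell markers 162 to 169 and 143 to 150, with Erbb3 and Ncam1 lower. For these lists the groups did not overlap, as for the summed members. The sums of the partners and cofactors, other mesenchyme factors, effectors and Runx targets were also lower in crushed nerves without overlap. That of the TGF-beta inputs was higher without overlap, and that of the epithelial genes overlapped. The fibroblast sum was mostly Thy1, at 124 ± 4.61 in intact and 105.6 ± 7.75 in crushed nerves (SD, n = 3 each; log2 fold change -0.23, edgeR adjusted p = 0.0552). Pdgfra, a fibroblast receptor gene, went the other way, at 46.6 ± 3.33 and 53.3 ± 2.77 (0.19, adjusted p = 0.166). With these and with Col1a2, Dcn, Lum and Dpt at 0, the sum does not follow fibroblast markers as a class. Of the 14 Schwann cell markers 7 were tested, with 2 fold changes positive and 5 negative, and Cdh19 and Mag were at 0. The Schwann cell sum thus rests on part of its list. Macrophage markers summed to 3.94 to 5.61 in intact and 4.43 to 6.30 in crushed nerves, endothelial markers to 4.66 to 5.53 and 3.77 to 5.08, and perineurial markers to 433 to 517 and 437 to 459, all with overlap. Lymphocyte, adipocyte, skeletal muscle and neuron markers each summed to less than 1 normalized CPM in every nerve. The 8 proliferation genes summed to 3675 to 3881 in intact and 3566 to 3681 in crushed nerves, and none of them passed an adjusted p of 0.05. The part of any of these cell types in the differences of Runx2, Twist1, Prrx1 and Prrx2 was not tested.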

How the data were processed

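RNA-seq of 3 crushed and 3 intact sciatic nerves was analysed. The file deposited by the authors gives, for every Ensembl gene, the raw read count in each nerve, together with FPKM values that the authors derived from those counts. The submitters' processing notes name HISAT2, StringTie (version 1.3.0) and Rnor_6.0 without their roles. The counting rule, its strand setting and the annotation release are not given in the sources used here, so overlapping genes on opposite strands cannot be told apart. Columns were assigned to nerves through the sample titles, and 0 further per-sample columns were left.

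The quasi-likelihood test of edgeR 4.0.16 (with limma 3.58.1 in R 4.3.3) was applied to the counts of all 12393 genes that passed its expression filter, after TMM scaling and without a replicate block. P-values were adjusted with the Benjamini-Hochberg method over all genes tested. Standard errors came from the test statistic. Gene length was recovered from the ratio of the deposited count and FPKM values. The limits given in the methods (log2 fold change of 1, p of 0.001) were read with an unadjusted p. The calculation was tested on simulated data.

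All 10 members are named. Of each other list, the 3 genes with the smallest p in each direction among those with an adjusted p under 0.05 and the 3 with the highest level per kilobase are named by rule. Other named genes were picked after their values were seen. The members and lists were chosen with earlier results of these data known. Replicates within a group differed by more than sampling noise (chi-square per degree of freedom 3.38 to 12.3) and were kept apart. As alternatives, DESeq2 1.42.0 was run with the Wald test, its size factors were passed to edgeR, the replicate number was added as a block, the filter was dropped, limma was run on log2(FPKM + 0.1), the fold limit was joined to an adjusted p, and nerves were left out one at a time. Promoter windows came from RefSeq for GRCr8, in the absence here of a genome of the files' build.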

Additional observations from a re-analysis of the deposited data

How the results depend on the processing

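No member passed the limits given in the methods in any alternative. One member, Runx2, had an adjusted p under 0.05 in edgeR's main test and with the replicate block (log2 fold change -0.21, adjusted p = 0.0297), DESeq2's size factors, DESeq2's Wald test (adjusted p = 0.0042) and no filter. With limma on log2(FPKM + 0.1) the number was 0, and with each nerve left out in turn 0 to 1, and the cause was not tested. The log2 fold change of Runx1 was 0.0062 without intact nerve 1 (-0.14 to 0.0062 with each nerve left out), that of Snai1 0.0157 without crushed nerve 3 (-0.14 to 0.0157), and that of Zeb2 0.0115 with limma, 0.0232 without intact nerve 1 and 0.0063 without crushed nerve 3 (-0.0210 to 0.0232). The other 7 members kept their direction in all 11 alternatives. Over all genes 387 passed an adjusted p of 0.05, against 300 with the block, 512 with DESeq2, 242 with limma and 177 to 400 with each nerve left out, so the percentages beside the members move with these settings. Effectors lower numbered 8, 5 with limma (without Col3a1, Col5a1 and S100a4) and 6 at the lowest with a nerve left out. Other mesenchyme factors lower numbered 3, and 1 (Foxc1) without any 1 crushed nerve. Partners lower numbered 0, and 1 (Wwtr1) with the block, with DESeq2's Wald test or without crushed nerve 1. Nerves with the same replicate number had correlations of deviations of -0.0106, -0.00099 and 0.0720, which do not tell whether they share a rat. The block changed no call of a member. It ended the calls of Col3a1 and Col5a1 (edgeR adjusted p = 0.0597 and 0.0783), while 8 effectors were again lower, with others passing in their place. With 3 nerves a group, the intervals of Twist2 and Snai1, at under 110 counts a nerve, are the widest.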
